A study of Homo sapiens with 21 samples.

Results

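The H3K4me3 peak calls of asparagine-starved RS4;11 cells were compared between cultures without and with added iron. RS4;11 is an established human line from B-cell acute lymphoblastic leukaemia in which KMT2A is fused to AFF1. The -Asn group was grown for 24 hours in medium without asparagine. The -Asn+Fe group was grown for the same 24 hours in the same medium with ferric nitrate at 10 µM together with hinokitiol, an ionophore that ferries iron through lipid bilayers, at 0.75 µM. Another group, +Asn, was kept in complete medium and is given as a reference. The sources used here name hinokitiol only with the iron, so the effects of iron and of hinokitiol cannot be told apart. Each group had 3 H3K4me3 ChIP-seq libraries and 3 RNA-seq libraries, and nothing says that the 3 came from separate cultures, so the p-values below reflect only the scatter among these libraries, possibly all of it technical. The peaks of all 9 ChIP libraries had been merged into 19279 regions, and the compared regions are the 18896 that at least 1 of the 6 -Asn and -Asn+Fe libraries called. The other 383 were called only with asparagine present. The peak table gives positions and no read counts or heights, so the depth of the ChIP libraries is unknown, and the measures are whether a region was called and how many base pairs the calls in it covered, which is its covered width.

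H3K4me3 is trimethylation of lysine 4 of histone H3. It sits over the starts of active genes, is written by the KMT2 and SET1 methyltransferase complexes, several of which reach CpG-rich DNA through a zinc-finger CXXC domain, and is removed by the KDM5 demethylases. The KDM5 enzymes belong to the JmjC family, which uses ferrous iron and 2-oxoglutarate as cofactors, and iron supply is therefore one of the inputs to this mark. Iron entry into a cell also acts through other routes, among them the IRP proteins that control ferritin and transferrin receptor messages, and NRF2, the oxidant-responsive factor behind NQO1, GCLM and HMOX1.

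Shown first are 7 promoters named in the results below, none of which passed the width test described there. Each is given as the 250 bases before the RefSeq start (build GRCh38.p14), 5′ to 3′ on the strand of the gene. Every CpG is in capitals. TFE3, VCP, LIMK1 and SPPL2A are there because their regions were among the 5 promoter regions of at least 1000 bp with the smallest p-values in their direction of width difference. ME1, NQO1 and FTL are there because their RNA rose with iron.
TFE3 (chrX:49043358-49043607, minus strand, 22 CpG): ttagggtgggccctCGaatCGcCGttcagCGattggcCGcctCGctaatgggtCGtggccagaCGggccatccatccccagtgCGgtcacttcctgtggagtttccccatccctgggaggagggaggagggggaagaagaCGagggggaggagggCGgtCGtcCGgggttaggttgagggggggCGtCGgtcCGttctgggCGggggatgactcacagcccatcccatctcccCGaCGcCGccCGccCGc
VCP (chr9:35072626-35072875, minus strand, 23 CpG): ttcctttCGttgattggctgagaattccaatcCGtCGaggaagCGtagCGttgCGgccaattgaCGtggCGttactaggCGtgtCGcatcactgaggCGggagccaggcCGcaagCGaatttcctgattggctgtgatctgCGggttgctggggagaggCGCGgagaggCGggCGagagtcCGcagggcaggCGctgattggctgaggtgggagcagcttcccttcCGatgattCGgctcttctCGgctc
LIMK1 (chr7:74083554-74083803, plus strand, 34 CpG): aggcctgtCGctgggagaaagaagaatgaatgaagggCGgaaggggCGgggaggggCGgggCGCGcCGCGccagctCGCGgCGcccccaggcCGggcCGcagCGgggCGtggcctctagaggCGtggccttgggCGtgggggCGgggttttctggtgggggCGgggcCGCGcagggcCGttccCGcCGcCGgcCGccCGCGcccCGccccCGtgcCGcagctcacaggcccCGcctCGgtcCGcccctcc
SPPL2A (chr15:50765707-50765956, minus strand, 28 CpG): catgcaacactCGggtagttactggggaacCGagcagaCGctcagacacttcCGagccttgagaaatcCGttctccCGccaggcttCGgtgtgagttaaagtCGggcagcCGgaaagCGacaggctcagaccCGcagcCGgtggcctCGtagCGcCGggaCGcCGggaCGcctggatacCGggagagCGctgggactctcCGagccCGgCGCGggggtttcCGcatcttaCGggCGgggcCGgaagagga
ME1 (chr6:83431052-83431301, minus strand, 25 CpG): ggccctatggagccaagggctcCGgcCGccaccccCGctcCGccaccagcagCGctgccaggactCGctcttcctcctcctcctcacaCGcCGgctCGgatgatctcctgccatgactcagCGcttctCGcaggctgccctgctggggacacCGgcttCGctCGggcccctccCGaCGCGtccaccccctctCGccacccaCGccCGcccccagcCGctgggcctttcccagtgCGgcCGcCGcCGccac
NQO1 (chr16:69726561-69726810, minus strand, 9 CpG): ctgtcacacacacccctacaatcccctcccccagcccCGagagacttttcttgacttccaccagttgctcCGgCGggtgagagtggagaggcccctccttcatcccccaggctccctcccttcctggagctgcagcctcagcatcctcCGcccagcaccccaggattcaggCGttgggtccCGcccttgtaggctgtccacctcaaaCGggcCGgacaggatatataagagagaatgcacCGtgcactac
FTL (chr19:48965059-48965308, plus strand, 18 CpG): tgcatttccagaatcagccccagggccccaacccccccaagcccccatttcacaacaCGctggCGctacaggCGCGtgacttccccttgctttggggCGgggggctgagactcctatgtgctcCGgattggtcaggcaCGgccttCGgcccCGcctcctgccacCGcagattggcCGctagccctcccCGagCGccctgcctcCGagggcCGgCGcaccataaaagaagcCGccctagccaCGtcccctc
The LIMK1 window was the richest in CpG of the 7 and the NQO1 window the poorest. Over 35116 RefSeq starts the median was 11 CpG in 250 bases. It was 22 over the 14668 starts inside a region that all 6 libraries called, 12 over the 247 starts in a region called by 1 to 5 of them, and 4 over the 20198 starts in no region. CpG content did not sort the regions by their difference with iron: the median log2 width difference lay between -0.011 and -0.020 in 4 classes of starts with 0 to 9, 10 to 19, 20 to 29 and 30 or more CpG. The antioxidant response element bound by NRF2, searched as TGACNNNGC on both strands, matched once in the ME1 window, 137 bases before the start, and once in the VCP window, 189 bases before it. It matched in 10.9% of all 35116 windows, and these letters were not in the other 5 windows shown.

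As many regions were called with iron as without it. The 3 -Asn libraries called 15554, 17448 and 16507 regions, and the 3 -Asn+Fe libraries called 17206, 15891 and 16384. The groups overlapped over most of their range, and the means, 16503 ± 947 and 16494 ± 664 (SD, n = 3), differed by less than the spread (exact permutation test, two-sided p = 1). The calls covered 26.4, 30.1 and 28.1 Mb without iron and 28.97, 26.8 and 27.5 Mb with it (exact permutation p = 0.8). The -Asn replicate 2 library was the widest of the 6 and the -Asn replicate 1 library the narrowest, so both extremes lay in 1 group. The +Asn libraries called 15141, 15230 and 14741 regions, below all 6. The median width of called regions was 1566, 1593 and 1574 bp without iron and 1550, 1552 and 1542 bp with it, which do not overlap, and the exact permutation p of 0.1 is the smallest that 3 libraries against 3 can give. Over the 13883 regions called in all 9 libraries the medians did overlap, at 1677, 1840 and 1761 bp without iron and 1780, 1690 and 1723 bp with it.

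**Figure D1:**
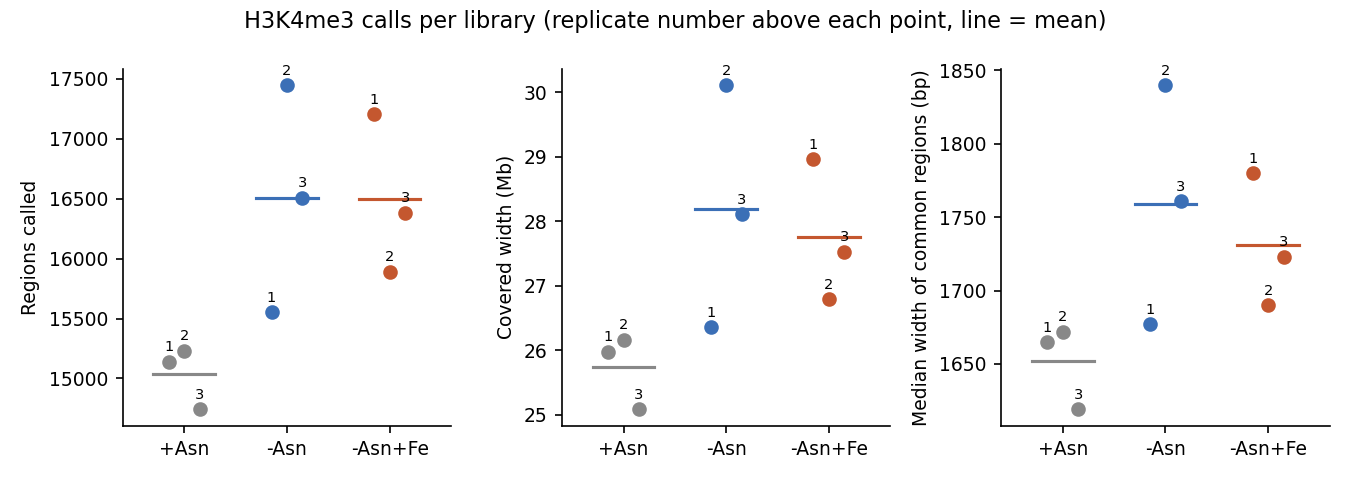
Regions called (left), megabases covered (middle) and median width over the regions called in all 9 libraries (right) for each H3K4me3 library, by group, with the replicate number above each point and a line at the group mean. The vertical axes do not start at 0. The -Asn+Fe libraries lie within the range of the -Asn libraries, and -Asn replicate 2 is the highest in each panel.

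Most regions were called in both conditions. All 6 libraries called 14752 regions, 76.5% of the 19279. The most frequent of the other patterns were calls of a single library: 807 regions were called by 1 -Asn library and no -Asn+Fe library, and 781 by 1 -Asn+Fe library and no -Asn library. Only 47 regions (0.244%) were called in all 3 -Asn+Fe libraries and in no -Asn library, and 52 (0.270%) the other way round. These are called gained and lost below, as a description of the calls without a test. Among the 11180 regions at coding promoters, 95.4% were called in all 6 libraries, against 32.5% of the 2972 regions inside introns and 52.1% of the 2455 between genes.

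**Figure D2:**
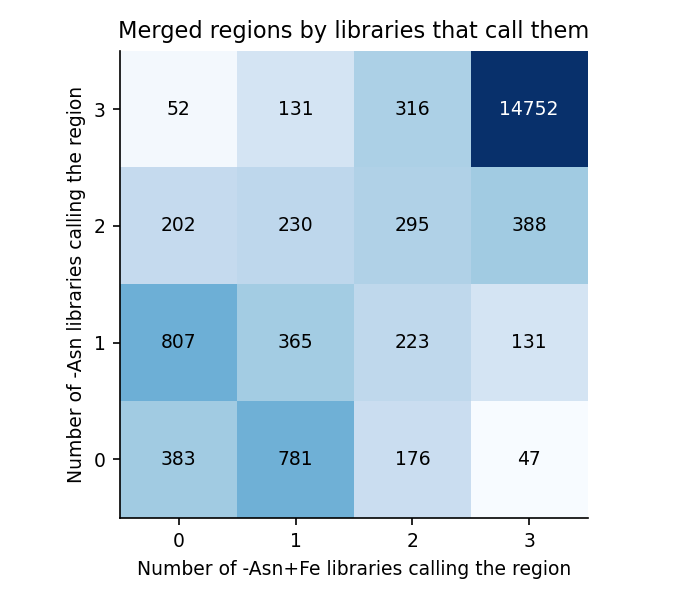
Number of merged regions by how many -Asn libraries (vertical axis) and how many -Asn+Fe libraries (horizontal axis) called them, with darker shading for larger counts on a log scale. On either side of the diagonal the counts are 807 and 781, 202 and 176, 52 and 47, 230 and 223, 131 and 131, and 316 and 388, with the first of each pair for more -Asn libraries.

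The gained and lost regions were narrow. Their median call was 319 bp wide for the gained and 318.5 bp for the lost ones, and only 3 gained and 6 lost regions averaged over 500 bp. The median was 1718 bp over the regions called in all 9 libraries, a set that leaves out inconsistently called regions. They lay mainly outside promoters: 17 gained regions were in introns and 15 between genes, and of the lost ones 27 were in introns and 13 between genes. No +Asn library called 39 of the 47 gained and 37 of the 52 lost regions, while all 3 called 5 gained and 4 lost ones. This was common among inconsistently called regions. No +Asn library called 702 of the 807 regions of 1 -Asn library or 686 of the 781 of 1 -Asn+Fe library. For regions called by 2 libraries of a single group the numbers were 154 of 202 and 139 of 176. The widest gained region, in an intron of CRTC1, a coactivator of CREB, was called at 738, 501 and 835 bp with iron. All 3 +Asn libraries called it too, at 495, 323 and 405 bp. The next, in an intron of UTRN, which encodes utrophin, was called at 697, 479 and 684 bp with iron and in none of the other 6 libraries. An intron of PML, the scaffold of nuclear bodies, had calls of 765, 513 and 389 bp with iron and 787, 452 and 630 bp in complete medium. The widest lost region lay in an intron of TG, the thyroglobulin gene, with 335, 993 and 649 bp without iron, and 2 of the 6 widest lay in introns of MYT1L, a neuronal transcription factor.

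At coding promoters 5 regions were gained and 5 lost. Among the genes described here, RNA passed the test in the direction of the call for PCDHB13 and EVI5L and in the other direction for SPTLC2. OASL, an interferon-induced gene, gained calls of 318, 484 and 453 bp. Its RNA was at 0.326 ± 0.123 CPM (read counts scaled to a common library size, SD, n = 3) without iron and 0.5003 ± 0.212 CPM with it, and did not pass the test. IFITM3, another interferon-induced gene, gained calls of 223, 231 and 418 bp with RNA at 1.01 ± 0.111 and 0.929 ± 0.315 CPM, which did not pass. CTSG, the neutrophil protease cathepsin G, gained calls of 243, 252 and 285 bp, and its RNA, 13.3 ± 2.9 CPM without iron and 16.1 ± 0.80 CPM with it, did not pass either. PCDHB13, a protocadherin, gained calls of 223, 226 and 238 bp and its RNA rose 1.98-fold (edgeR adjusted p = 0.011). APC2 was the fifth gained promoter, with RNA at 1.18 and 1.04 CPM, which did not pass. Of the lost promoters, SPTLC2, a subunit of serine palmitoyltransferase, lost calls of 223, 283 and 249 bp while its RNA rose 1.30-fold (edgeR adjusted p = 0.0035). EVI5L lost calls of 360, 311 and 412 bp and its RNA fell to 0.767 of the level without iron (edgeR adjusted p = 0.018). The promoters of ATOH7 and LRP4 were also lost, and their RNA had at most 11 counts over 3 libraries.

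No region changed its width past the threshold. limma was run on log2 widths of the 13883 regions called in all 9 libraries. At a Benjamini-Hochberg adjusted p below 0.05, 0 regions were wider (0%) and 0 narrower (0%) with iron, and the smallest adjusted p was 0.195. At an unadjusted p below 0.05 there were 1046 of the 13883 regions, 287 wider and 759 narrower. After centring each library on its median there were 1412, 718 wider and 694 narrower, and the smallest adjusted p was 0.064. Whether these counts exceed what arises without any difference was not tested. The median difference was -0.019 on the log2 scale, or -1.32%, and the median standard error of 1 region was 0.070. That error corresponds to an unadjusted 95% interval of 1.11-fold in either direction for a typical region. The adjustment over 13883 regions asks for more: the LIMK1 region, at -30.6%, had a limma adjusted p of 0.195. The absence of calls therefore does not exclude differences above 1.11-fold at single regions. In 497 regions (3.58%) all 3 -Asn+Fe libraries were wider than all 3 -Asn libraries, and in 1176 (8.47%) all 3 were narrower. With each library centred on its median log2 width, which by construction evens out the balance of directions, the counts were 1131 (8.15%) and 1080 (7.78%). The lean depended on single libraries: the median difference was 0.013 without -Asn replicate 2, -0.052 without -Asn replicate 1, -0.0022 without -Asn+Fe replicate 2 and -0.039 without -Asn+Fe replicate 1. The correlation of log2 widths between an -Asn and an -Asn+Fe library was 0.962 to 0.974. It was 0.964 to 0.977 between 2 -Asn libraries and 0.968 to 0.974 between 2 -Asn+Fe libraries. Such a correlation is taken over all regions and cannot show a difference at a few of them.

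The 5 promoters with the smallest p for a wider region of at least 1000 bp are described here, and none of them passed the adjusted threshold. TFE3 encodes a transcription factor for lysosome and autophagy genes. Its region on chrX:49042021-49043688, over the start shown above, covered 1099, 1124 and 1064 bp without iron and 1599, 1349 and 1574 bp with it, and 1016, 1085 and 1030 bp with complete medium. The iron libraries stood apart from the other 6. The difference was 0.46 ± 0.078 (log2, SE), or 37.2%, with an adjusted p of 0.321 in limma, and TFE3 RNA rose 1.98-fold, from 38.5 ± 1.1 to 76.3 ± 2.3 CPM (edgeR adjusted p = 2.6e-08). PHLDA3 encodes a p53-induced repressor of AKT. Its region (chr1:201466728-201469737) was at 1308, 1062 and 1073 bp with complete medium, 2060, 2166 and 2108 bp without asparagine, and 2865, 2778 and 2782 bp with iron. The 3 groups did not overlap, the difference with iron was 0.41 ± 0.074 (log2, SE), with limma adjusted p = 0.328, and PHLDA3 RNA rose 1.83-fold from 7.30 ± 1.1 CPM (edgeR adjusted p = 0.00014). VCP, an ATPase that extracts ubiquitylated proteins, went from 2167, 2138 and 2168 bp to 2623, 2453 and 2428 bp, a log2 difference of 0.21 ± 0.046, and its RNA rose 1.17-fold (edgeR adjusted p = 0.022). TASOR, a subunit of the HUSH silencing complex, went from 1752, 1946 and 1894 bp to 2302, 2131 and 2364 bp, with RNA at 0.952 of the level without iron (edgeR adjusted p = 0.57). The lncRNA gene LINC01226 had 1046, 1677 and 1211 bp without iron and 2035, 2049 and 2229 bp with it, close to the 2203, 2239 and 1867 bp of complete medium.

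Among the narrower promoters LIMK1 had the smallest p. LIMK1 is the kinase that phosphorylates the actin-severing protein cofilin. Its region (chr7:74083203-74084848) covered 1576, 1516 and 1464 bp with complete medium and 1503, 1436 and 1538 bp without asparagine, and 1076, 1083 and 951 bp with iron. Only the iron libraries were low. The difference was -0.53 ± 0.069 (log2, SE), or -30.6%, with limma adjusted p = 0.195, and LIMK1 RNA was level at 33.5 ± 2.1 and 33.0 ± 1.9 CPM (edgeR adjusted p = 0.87). SPPL2A encodes an intramembrane protease. Its region went from 2510, 2570 and 2524 bp to 2171, 2153 and 2093 bp, with 1896, 1981 and 1851 bp in complete medium, and its RNA fell to 0.817 of the level without iron (edgeR adjusted p = 0.014). DSCC1, a subunit of an alternative clamp loader used in sister-chromatid cohesion, went from 1999, 2181 and 2202 bp to 1788, 1757 and 1784 bp, and its RNA fell to 0.499 of the level without iron (edgeR adjusted p = 2.3e-06). HCP5 and C6orf136, both on chromosome 6, were narrower, by -19.6% and -18.5%. Both genes also have copies on alternate contigs in the count table, which share their reads, so their RNA was not used.

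**Figure D3:**
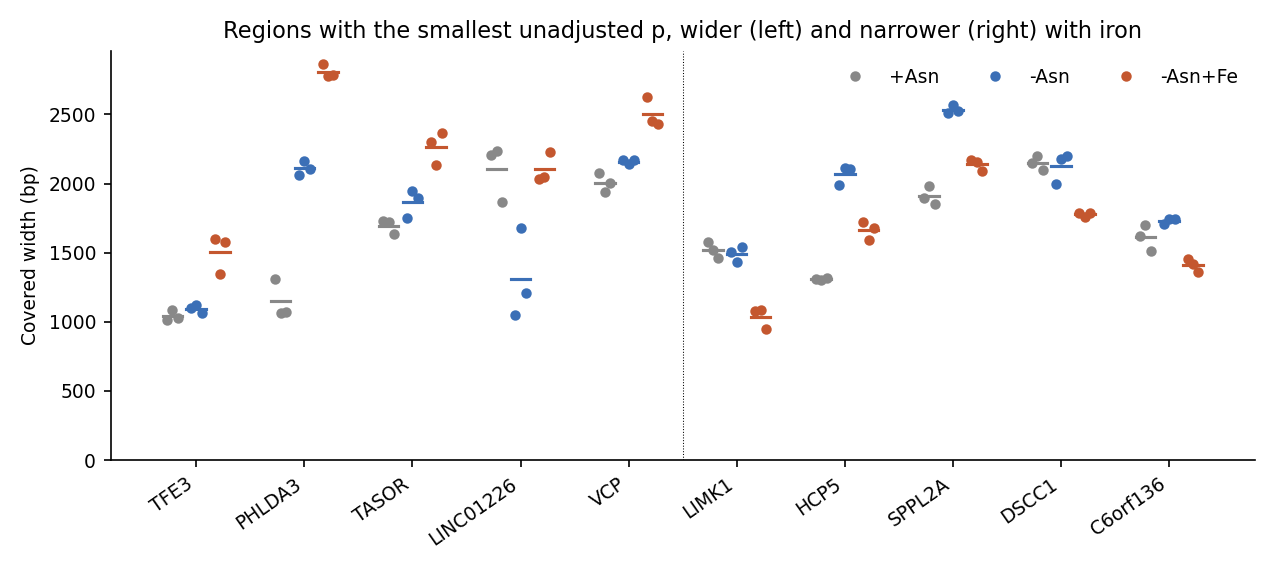
Covered width in bp, from 0, of the 5 wider and 5 narrower promoter regions with the smallest unadjusted p, in each of the 9 libraries, with a line at each group mean. None passed the adjusted threshold. In all 10 the 3 -Asn+Fe libraries lie outside the range of the 3 -Asn libraries, as the choice required.

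Away from annotated gene starts, 3 regions of at least 1000 bp per direction were taken by smallest p, and none passed. An exonic region at chr15:58472828-58475586 covered 1798, 2038 and 1722 bp without iron and 1161, 740 and 699 bp with it, a difference of -1.13 ± 0.165 (log2, SE) with limma adjusted p = 0.253. Without the -Asn+Fe replicate 1 library, the highest of its group there, the adjusted p was 0.0015. An intergenic region at chr1:160446974-160449093 went from 1656, 1922 and 1532 bp to 1095, 990 and 1198 bp, and another at chr14:22550185-22551982 from 1583, 1720 and 1493 bp to 1140, 1292 and 1176 bp. Wider regions were an exonic one at chr16:72787164-72788863, an intronic one at chr7:151850808-151852287 and an exonic one at chr13:113404944-113408530, with differences of 0.30, 0.51 and 0.14 (log2). The first and the last of these were at 1584, 1687 and 1551 bp and at 3522, 3578 and 3469 bp with complete medium, above all 3 -Asn libraries.

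A width joins 2 edges, and the edges were tested separately in limma at 7626 regions whose gene starts lay on 1 strand. On the gene-body side 2 edges moved outward with iron (0.0262%) and 3 inward (0.0393%). On the upstream side 0 moved outward (0%) and 1 inward (0.0131%). The upstream edge was that of LIMK1: it lay 548, 531 and 506 bases before the RefSeq start without iron and 130, 110 and 37 bases before it with iron, a shift of -436 ± 39.1 bp (SE, limma adjusted p = 0.011). The 250 bases of LIMK1 shown above thus lay inside the called span of each -Asn library, and only their last 130, 110 and 37 bases did so in the -Asn+Fe libraries. Complete medium gave 562, 601 and 474 bases. The PHLDA3 edge went outward into the gene, from 1674, 1750 and 1736 bases after the start to 2509, 2380 and 2281, a shift of 670.0 ± 76.6 bp (SE, limma adjusted p = 0.019), with complete medium at 1045, 771 and 918. The SPPL2A edge went inward from 1960, 2063 and 2011 bases after the start to 1650, 1676 and 1564 (limma adjusted p = 0.033). The gene-body edges of 2 lncRNA genes on chromosome 6, LINC02569 and HCP5, shifted by -401 and -400.0 bp, and that of a region just before the start of GNG7, which encodes a G-protein gamma subunit, shifted by 266 bp (limma adjusted p = 0.0035, 0.019 and 0.033). With only the 6 libraries compared, LIMK1 alone passed (limma adjusted p = 0.039), and its adjusted p was 0.082 without -Asn replicate 3. Leaving out 1 library in turn, the LINC02569 edge passed each time, and those of SPPL2A and GNG7 passed in no such fit. The PHLDA3 edge passed without +Asn replicate 1, +Asn replicate 2 or -Asn+Fe replicate 3, and HCP5 did not pass without -Asn replicate 2 or 3 or without -Asn+Fe replicate 2 or 3.

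Over all 17939 genes tested in RNA by edgeR, 2506 rose with iron (14.0%) and 3019 fell (16.8%) at an adjusted p below 0.05. Of the NRF2 and glutathione list 20 of 25 tested genes rose and 0 fell, while none of their regions passed the width test. HMOX1, the heme oxygenase that NRF2 and heme induce, went from 0.142 ± 0.048 to 13.8 ± 2.3 CPM, a 96.3-fold rise (edgeR adjusted p = 3.1e-11). Its promoter was called in 1 of 3 -Asn libraries, at 386 bp, in 2 of 3 -Asn+Fe libraries, at 376 and 255 bp, and in no +Asn library. It was therefore outside the width test. OSGIN1, an oxidative-stress-induced growth inhibitor, rose 8.54-fold in RNA (edgeR adjusted p = 6.4e-09). Its region was called in 2 of 3 -Asn libraries, at 471 and 232 bp, and at 661, 706 and 595 bp with iron. The +Asn libraries called it too, at 373, 325 and 408 bp, with RNA at 0.635 CPM. NQO1, the quinone reductase, rose 7.58-fold in RNA (edgeR adjusted p = 1.1e-12). Its region covered 1395, 1740 and 1560 bp without iron and 1888, 1737 and 1808 bp with it, a difference of 0.22 (log2, 95% interval 0.04 to 0.39, limma adjusted p = 0.579), with 1 -Asn library inside the range of the iron libraries. ME1, the cytosolic malic enzyme, rose 9.01-fold in RNA (edgeR adjusted p = 2.4e-09) and its region went from 620, 722 and 526 bp to 763, 779 and 834 bp without overlap (limma adjusted p = 0.627). GCLM, the modifier subunit of the enzyme that makes gamma-glutamylcysteine, rose 4.12-fold in RNA (edgeR adjusted p = 7.3e-11) over a region of 1651, 1879 and 1782 bp without and 1893, 1780 and 1769 bp with iron. SLC7A11, the cystine transporter, rose 2.90-fold (edgeR adjusted p = 2.8e-06) over 3754 ± 186 and 3910 ± 35.4 bp (SD, n = 3).

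Among the iron genes, 6 of 21 tested rose in RNA and 4 fell, beside 14.0% and 16.8% of all genes. FTL, the ferritin light chain, rose 2.99-fold in RNA (edgeR adjusted p = 4.0e-09). Its region covered 2103, 3090 and 2794 bp without iron and 3223, 2861 and 3045 bp with it (log2 difference 0.21, 95% interval -0.06 to 0.48). FTH1, the heavy chain, rose 1.40-fold (edgeR adjusted p = 0.0018) with a log2 width difference of 0.04 (95% interval -0.05 to 0.13). TFRC, the transferrin receptor, fell to 0.417 of its RNA level (edgeR adjusted p = 4.3e-09) over regions of 2232, 2582 and 2497 bp and of 2447, 2611 and 2449 bp, with a log2 difference of 0.04 (95% interval -0.10 to 0.18). Of the 20 iron uptake, storage and regulation genes with a tested region, 0 had wider and 2 narrower non-overlapping widths, FBXL5 and PCBP2. After centring the libraries there were 2 wider and 0 narrower. FBXL5 is the iron-sensing part of the ligase that degrades IRP2, and PCBP2 is an iron chaperone. The NRF2 and glutathione list had 2 wider, ME1 and TXN, and 0 narrower of 23, with a median log2 difference of 0.036 against -0.019 over all regions. With libraries centred the list had 7 wider and 1 narrower. The shares over all tested regions were 3.58% wider and 8.47% narrower, and 8.15% and 7.78% after centring.

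**Figure D4:**
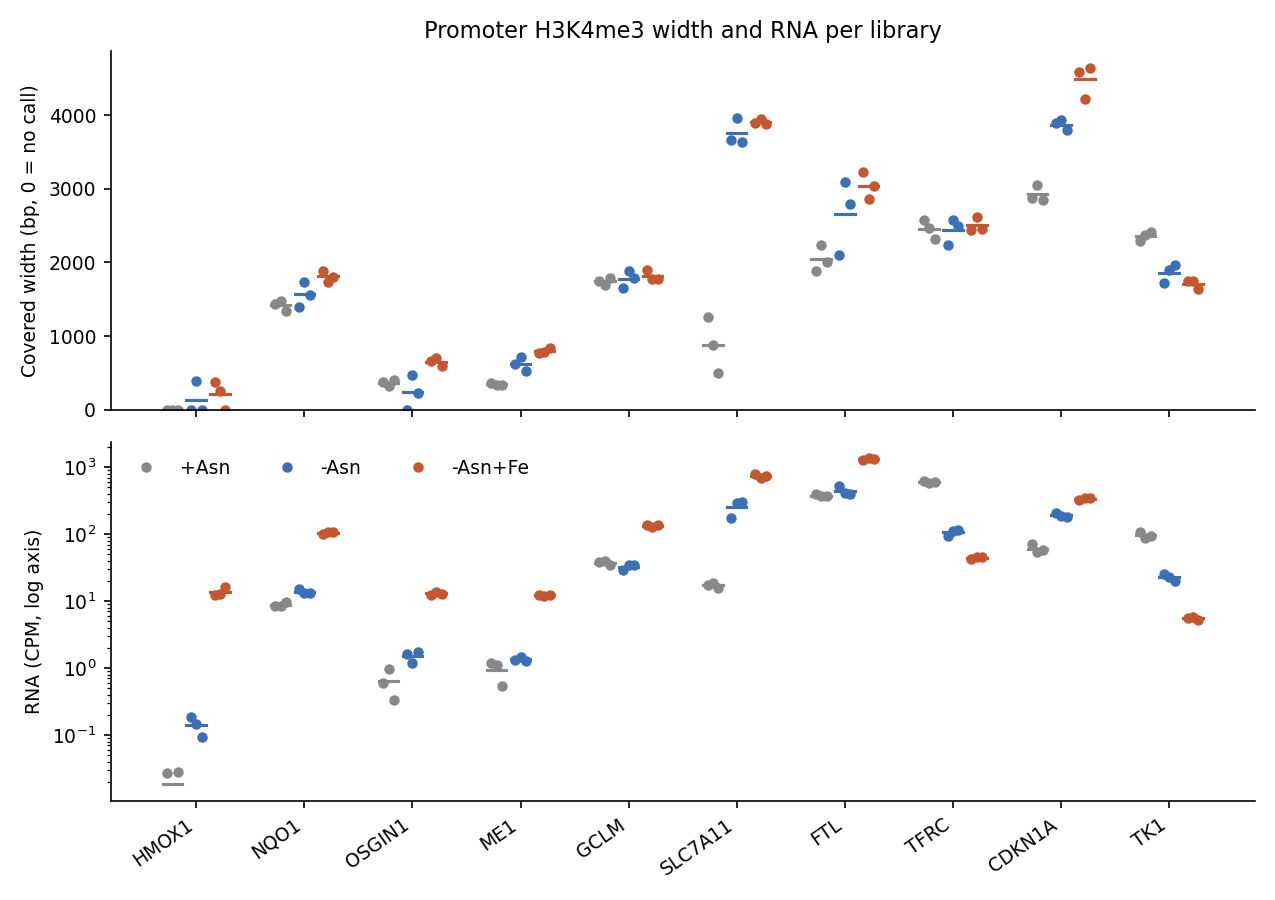
Covered width of the promoter region in bp (top, from 0, where 0 is no call) and RNA in CPM on a log axis (bottom) for 10 genes in each of the 9 libraries, with lines at group means. The RNA of HMOX1, NQO1, OSGIN1, ME1, GCLM, SLC7A11, FTL and CDKN1A is higher in the iron libraries while most widths overlap between -Asn and -Asn+Fe. One +Asn library has 0 HMOX1 counts and is not drawn on the log axis.

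At the promoters of H3K4 methyltransferase subunits and of JmjC demethylases, no width passed the test. The demethylase list is not limited to the KDM5 enzymes that remove this mark. Over 22 subunits of the H3K4 methyltransferase complexes the median log2 width difference was 0.0031, with 0 wider and 0 narrower non-overlapping regions. Over 19 JmjC demethylases it was 0.013, with KDM4A as the single wider one and 0 narrower. After centring, the methyltransferase list had 1 wider and 0 narrower and the demethylase list 3 and 0. Among all tested regions 3.58% were wider and 8.47% narrower without overlap, and 8.15% and 7.78% after centring. KDM5B covered 1433 ± 142 bp without and 1382 ± 51.7 bp with iron (SD, n = 3), KDM5C 2902 ± 197 and 2865 ± 33.0 bp. No region lay within 1 kb of the KDM5A start, and KDM5A was not analysed for width. Its RNA was nonetheless present, at 284 CPM without iron and 318 CPM with it. KDM6B, an H3K27 demethylase, had 5708, 6258 and 6018 bp against 6030, 5843 and 5545 bp, while complete medium gave 3925, 4015 and 3900 bp. The broad domain over HOXA9, the homeobox gene kept on by the KMT2A fusion, covered 27156 ± 208 bp without and 27148 ± 109 bp with iron, and MEIS1, its partner, 16675 ± 1111 and 16629 ± 318 bp. Of 23 KMT2A fusion targets only CPEB2 had non-overlapping widths, and it was narrower, while after centring there were 2 wider and 0 narrower.

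Cell-cycle genes fell in RNA, and their promoters leaned narrower. Of 39 tested S-phase and E2F genes 38 fell in RNA and 0 rose, and of 35 G2 and mitosis genes 35 fell, where 16.8% of all genes fell. Of the 40 S-phase promoters 9 were narrower without overlap (CDC45, CDC6, CDT1, E2F2, MCM6, ORC1, RFC3, RFC4 and RRM1) and 2 wider (MCM7 and UNG), with a median log2 difference of -0.061. After centring the libraries the numbers were 9 and 1. Of 34 mitotic promoters 6 were narrower (CDK1, KIF11, KIF20A, NDC80, PRC1 and TPX2) and 0 wider, with a median of -0.083, and 4 and 0 after centring. Over all regions 8.47% were narrower and 3.58% wider in this way, and 7.78% and 8.15% after centring. CDC45, a subunit of the replicative helicase, went from 3227, 3148 and 2909 bp to 2719, 2674 and 2869 bp (limma adjusted p = 0.461), while its RNA fell to 0.271 of the level without iron (edgeR adjusted p = 1.3e-10). ORC1, of the origin recognition complex, went from 2911, 3175 and 3019 bp to 2512, 2791 and 2564 bp. NDC80, a kinetochore protein, went from 3551, 3994 and 3590 bp to 3413, 3175 and 3040 bp. TK1 and E2F8, whose RNA fell to 0.243 and 0.191 of the level without iron (edgeR adjusted p = 1.2e-09 and 5.6e-12), overlapped in width, at 1714, 1892 and 1961 against 1747, 1750 and 1644 bp for TK1. No member of any list passed the adjusted threshold for width, and the members were named after their values were seen.

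Other stress lists were mixed. Over all tested regions 3.58% were wider and 8.47% narrower without overlap, and 8.15% and 7.78% after centring. Of 22 p53 targets CDKN1A and PHLDA3 were wider and SESN1 narrower without overlap, with a median of 0.019, and 4 and 2 after centring. CDKN1A encodes the cell-cycle inhibitor p21. Its region covered 3888, 3933 and 3799 bp without iron, 4591, 4227 and 4644 bp with it and 2875, 3049 and 2855 bp in complete medium (log2 difference 0.21, limma adjusted p = 0.362), and its RNA rose 1.78-fold (edgeR adjusted p = 3.3e-06). SESN1, a stress-induced regulator of mTORC1, went from 4029, 4311 and 4254 bp to 3943, 3009 and 3730 bp while its RNA rose 1.53-fold (edgeR adjusted p = 3.7e-05). The 14 heat shock chaperone promoters had a median of 0.050, with HSP90AA1 and HSPA1A wider and 0 narrower, and 6 wider and 1 narrower after centring. HSP90AA1 went from 3397, 3904 and 3632 bp to 3977, 4325 and 3989 bp. The 29 promoters of ATF4 and amino acid response genes, which starvation switches on, had a median of -0.0030, with PHGDH and VEGFA wider and 0 narrower, and 6 and 0 after centring. ATF4 itself was at 4504 ± 87.1 and 4513 ± 130 bp, CHAC1 at 2803 ± 70.7 and 2871 ± 173 bp and TRIB3 at 2523 ± 98.4 and 2397 ± 196 bp (SD, n = 3). Of 10 metallothionein and zinc transport promoters 3 were narrower, MT1F, MT1X and SLC30A5. After centring the list again had 3 narrower and 0 wider. MT1F RNA fell to 0.395 of the level without iron (edgeR adjusted p = 1.4e-06), MT1X RNA was at 18.0 and 13.6 CPM and did not pass, and SLC30A5 RNA rose 1.16-fold (edgeR adjusted p = 0.038).

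Of 30 cytosolic ribosomal protein promoters RPL3, RPL6, RPS3 and RPSA were wider and RPL7, RPS19 and RPS24 narrower, with a median of 0.031, and 4 and 2 after centring. As above, the shares over all tested regions were 3.58% wider and 8.47% narrower, and 8.15% and 7.78% after centring. Of 26 ribosome biogenesis and MYC promoters 3 were wider, among them MYC, and 2 narrower, and 3 and 1 after centring. MYC covered 6631, 6536 and 6634 bp without iron and 6806, 6765 and 6661 bp with it, a log2 difference of 0.03. HERPUD1 and PDIA6 were wider among 18 endoplasmic reticulum stress promoters, with 0 narrower, and 5 and 0 after centring. The 24 heme and iron-sulfur promoters had ALAS1 and PPOX wider and CPOX and GLRX5 narrower, and 4 and 3 after centring. In RNA 11 of 23 tested genes of this list fell and 0 rose, beside 16.8% and 14.0% of all genes. ALAS1 makes the first committed intermediate of heme, and CPOX and PPOX act late in the same route. The 16 promoters of TET and other iron dioxygenases had 0 wider and 0 narrower, with a median of 0.00079, and 4 wider and 0 narrower after centring. In the NF-kB list 12 of 15 tested genes rose in RNA and 0 fell, beside 14.0% and 16.8% of all genes, and NFKBIE, an inhibitor of NF-kB, was the single wider one of 16 promoters, with 3 wider and 0 narrower after centring. BIRC3, an NF-kB target that blocks apoptosis, rose 7.03-fold in RNA (edgeR adjusted p = 8.9e-10) over regions of 548, 975 and 602 bp without and 607, 611 and 560 bp with iron.

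Gene by gene, width and RNA moved together only weakly. The RNA calls came from edgeR's quasi-likelihood test, with 29362707 to 42478518 counted reads per library. Of the genes with a promoter region, 1733 rose and 2754 fell. The median log2 width difference was -0.0029 over the genes that rose, -0.029 over those that fell and -0.016 over the rest, and -0.062 over those that fell at least 2-fold. Non-overlapping narrower widths were found for 11.6% of the genes that fell and 5.95% of those that rose, beside 8.32% of all such genes. Non-overlapping wider widths were found for 2.46% and 4.98%. After centring the libraries narrower widths made 9.82% and 5.83%, and wider ones 6.58% and 12.7%. Across 12249 genes the correlation of the RNA and width differences was r = 0.11 (Pearson) and 0.11 (Spearman). This describes genes of the same libraries, some of which share 1 of the 9743 regions, and they are not independent replicates.

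**Figure D5:**
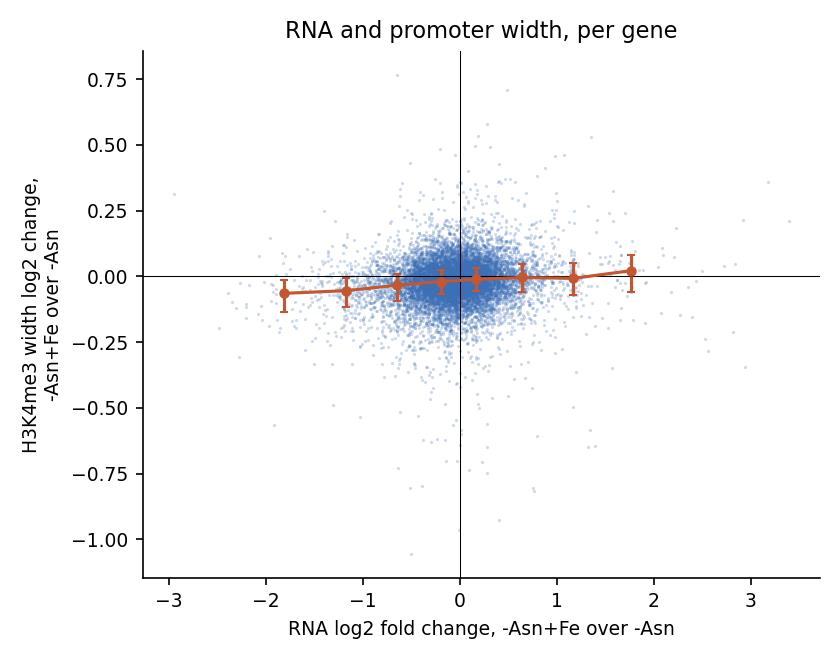
Log2 difference in H3K4me3 width (vertical axis) against log2 fold change of RNA (horizontal axis), -Asn+Fe over -Asn, with 1 point per gene for 12249 genes. Orange points are medians and bars the lower to upper quartile in 8 classes of RNA fold change. The medians run from -0.065 in the class that fell most to 0.022 in the class that rose most.

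Precursor B cell genes carried the mark. Regions lay at the starts of 23 of 26 precursor B cell genes, 6 of 12 T cell, 3 of 13 myeloid and 1 of 10 erythroid markers. Beside these, 12605 of the 17939 genes tested in RNA had a promoter region, and 20198 of 35116 RefSeq starts lay inside no region. Neither base matches the marker counts. The first leaves out genes too low for the RNA test, which the marker lists keep. The second asks for a start inside a region, where the marker counts allow 1 kb. In RNA 4 of the 26 tested genes of the precursor B cell list rose and 12 fell, beside 14.0% and 16.8% of all genes. Among them PAX5, EBF1 and CD79A were at 1311, 321 and 385 CPM without iron and 1157, 306 and 326 CPM with it. Markers of other lineages were mixed. Of the T cell list CD3D, CD3E, CD3G, CD2 and TRAT1 had at most 6 counts over 3 libraries, while ZAP70, LCK, GATA3 and BCL11B were at 117, 40.5, 16.0 and 7.30 CPM without iron and 98.1, 30.5, 22.3 and 8.37 CPM with it. Of the myeloid list SPI1, CSF1R and CEBPA were at 81.1, 16.6 and 9.35 CPM and at 57.4, 13.4 and 16.1 CPM, MPO and LYZ were under 1 CPM in both groups, and ITGAM went from 1.16 to 2.52 CPM. In the erythroid list HBG1, HBG2 and AHSP were at 0 counts, HBB had 1 and 2 and GATA1 0 and 3 over 3 libraries, and EPOR, at 0.538 and 0.356 CPM, had the most. The part of these levels in the results was not tested. CD72, a B cell co-receptor, was the single precursor B promoter of 23 with non-overlapping widths, where 8.47% of all tested regions were narrower. After centring there were 0. The CD72 region went from 3324, 3140 and 3292 bp to 3056, 2805 and 3041 bp, and its RNA fell (log2 -0.45, edgeR adjusted p = 0.00022). RAG2, of the V(D)J recombinase, covered 2086, 2405 and 2293 bp without and 2237, 1840 and 2272 bp with iron.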

How the data were processed

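Peak positions were the deposited values of the H3K4me3 libraries: per the submitters' processing notes the build was hg38 and the named tools include MACS2 2.2.7.1, Bowtie2 2.4.4 and Picard 2.18.26, with no role stated for any. Neither a peak threshold nor a role for the 3 input libraries is stated there. The merged table has 13 fields under 12 names. Because field 4 restates the position of the region on each of 19279 lines, the final 9 fields were read as libraries. Its columns named untreated were taken as complete medium. Raw read counts per gene were deposited for 9 RNA libraries, with STAR 2.7.2a, featureCounts and Subread 1.6.5 named in the submitters' processing notes. Whether counting used strand is not given.

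Widths and edges were tested with limma 3.58.1 (trended, robust) over all 9 libraries, on log2 base pairs and on kb, and counts with edgeR 4.0.16 (TMM, quasi-likelihood, low-count filter), all with Benjamini-Hochberg adjustment over all features. DESeq2 1.42.0 was an alternative. CPM used TMM-scaled library sizes. A promoter region lay within 1 kb of a gene start, which was the outer 5′ end in the count table or a RefSeq start. Of 66738 gene IDs 60306 matched the name table. Named regions averaged at least 1000 bp and had groups that did not overlap. Because fewer than 3 passed the threshold, the 5 promoters with the smallest p in each direction were named, and 3 per direction away from starts. The widest gained and lost regions and those at promoters were also named. Further genes came from a short list and from gene lists, and all of these were chosen with earlier results of these data known. Groups came from the sample titles. Scripts were tested on simulated data. Inputs were not used. A few named items are not reported here.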

Additional observations from a re-analysis of the deposited data

How the results depend on the processing

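Differences in the number of calls changed sign easily. The mean difference in peaks per library was 76 in favour of iron and -94.7 with peaks of at least 500 bp, and ranged from -312 to 387 when 1 library was left out. Regions called differed by -9.33, and by -484 to 463 leaving out 1 library, and covered Mb by -0.433, with -1.35 to 0.525. Gained and lost regions numbered 47 and 52. They were 178 and 183 when 1 call in the other group was allowed, 17 and 33 for calls of at least 500 bp, and 48 to 160 and 64 to 193 leaving out 1 library, with fewer libraries required. Width calls were 0 wider and 0 narrower, and 1 and 1 without trend or robust fitting. After the data were seen, the 6 libraries centred on the median gave 1 wider (PHLDA3), and regions of at least 500 bp, centred, gave 2 wider and 5 narrower. Leaving out 1 library gave 0 wider and 0 to 1 narrower, the 1 without -Asn+Fe replicate 1. The replicate block gave 0 and 0. Gene-body edges outward were 2 and 7 when centred, 0 with the 6 libraries and 0 with the replicate block, and inward 3, 5, 0 and 1. Upstream edges inward were 1, and 2 when centred. Leaving out 1 library gave 0 to 2 and 1 to 4 gene-body edges outward and inward, and 0 to 4 and 0 to 10 upstream edges. Promoter genes with higher and lower RNA were 1733 and 2754, and 727 and 1777 by DESeq2. Deviations of the same-numbered widths of the 2 groups correlated at -0.21, -0.20 and 0.025. Whether the replicate numbers pair the libraries is not stated, and so few values cannot decide it. The block moved no other count by over 1.5 times. The median width difference of the RNA classes kept its order, lowest over genes that fell, in all fits, but without -Asn replicate 2 all 3 medians were above 0. ChIP depth is unknown, which limits what an absent call means.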
